A study of Mus musculus with 5 samples.

Results

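The glycolysis genes described here are *Slc2a1*, *Hk2*, *Pfkl*, *Aldoa*, *Tpi1*, *Gapdh*, *Pgk1*, *Eno1*, *Pkm* and *Ldha*, 10 of the 28693 features counted in immune cells of the mouse lung before and after bleomycin injury. They were chosen by name and cover the route from glucose uptake to lactate. All 10 were detected in every library, and all 10 passed the filter on low counts in each of the 6 comparisons below. Lung immune cells came from *Ms4a3-CreER;R26-tdT* mice, in which an inducible Cre driven by *Ms4a3*, a gene of granulocyte and monocyte progenitors, switches on the red fluorescent reporter tdT after tamoxifen. The sham library came from lungs given PBS, and 1 library each came from lungs 3, 7, 14 and 28 days after bleomycin, a drug that injures the lung and leads to fibrosis. The mice of all 5 libraries carried both alleles. The study kept its lines on a mixed C57BL6 and 129 background and used adult mice of both sexes, and the number and sex of the mice in each library are not given in the sources used here. With 1 library per time point, no test was made between time points, and each 95% interval on a level or ratio covers counting error only.

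Glycolysis splits glucose into pyruvate in the cytosol and yields ATP without oxygen. Its early steps take up and phosphorylate the sugar, its later steps recover energy, and lactate dehydrogenase returns pyruvate to lactate when flux is high. Macrophages that respond to injury or microbes are known to raise glycolysis, whereas resident alveolar macrophages live in a glucose-poor airspace and lean on fatty acid oxidation. Many genes of the pathway are targets of the hypoxia factor HIF-1, whose binding sites often hold the core ACGTG, and that core was therefore looked for in the promoters of the 10 genes.

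The promoter windows (250 bases before and 50 after a start site, RefSeq, GRCm38.p6) of all 10 genes were found, as 16 windows. The core ACGTG, read on both strands with overlapping matches counted once, was in at least 1 window of 7 genes and in 8 of the 16 windows (50%), beside 19.6% of all 32851 windows. Of the 8 windows, 2 were overlapping windows of *Aldoa* that held the same site, and the 19.6% counts windows, not genes. *Ldha* held 3 matches in 1 window, and 2 matches stood in a window of *Pgk1*, *Hk2* and *Pkm*, beside 2.69% of all windows with at least 2. The windows of *Pfkl*, *Tpi1* and *Eno1* held none. The 4 windows printed span the range from 3 matches to none. The core is in capitals, the rest in lower case, each 5′ to 3′ on the gene's own strand, which is the plus strand for all 4.
Slc2a1, chr4:119108495-119108794: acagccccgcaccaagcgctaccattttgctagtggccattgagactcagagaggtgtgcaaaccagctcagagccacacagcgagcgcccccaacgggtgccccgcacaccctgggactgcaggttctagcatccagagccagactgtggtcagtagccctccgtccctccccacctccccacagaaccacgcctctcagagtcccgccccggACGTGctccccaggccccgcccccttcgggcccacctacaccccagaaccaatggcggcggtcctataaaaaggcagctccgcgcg
Pgk1, chrX:106186850-106187149: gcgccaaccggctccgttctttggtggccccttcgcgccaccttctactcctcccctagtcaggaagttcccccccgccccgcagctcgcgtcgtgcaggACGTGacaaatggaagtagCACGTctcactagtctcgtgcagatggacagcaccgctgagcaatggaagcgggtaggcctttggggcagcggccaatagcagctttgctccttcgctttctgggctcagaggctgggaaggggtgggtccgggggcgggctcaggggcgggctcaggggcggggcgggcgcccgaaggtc
Ldha, chr7:46845554-46845853: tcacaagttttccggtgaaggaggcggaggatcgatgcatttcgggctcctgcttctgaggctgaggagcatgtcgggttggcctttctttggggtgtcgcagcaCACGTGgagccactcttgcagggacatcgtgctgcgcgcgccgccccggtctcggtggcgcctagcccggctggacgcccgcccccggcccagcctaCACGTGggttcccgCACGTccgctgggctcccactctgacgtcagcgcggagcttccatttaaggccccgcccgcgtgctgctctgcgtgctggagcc
Eno1, chr4:150236974-150237273: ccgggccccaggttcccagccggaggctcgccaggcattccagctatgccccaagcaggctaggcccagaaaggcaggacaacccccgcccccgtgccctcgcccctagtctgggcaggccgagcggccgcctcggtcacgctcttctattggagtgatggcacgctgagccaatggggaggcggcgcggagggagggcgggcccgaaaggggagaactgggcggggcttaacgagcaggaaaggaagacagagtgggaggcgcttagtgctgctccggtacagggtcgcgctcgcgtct
The match in *Slc2a1* lies 36 bases before the start. The pair in *Pgk1* lies 150 and 131 bases before it, and the 3 of *Ldha* begin 145, 48 and 34 bases before it. A match is a description of letters only.

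After filters on genes, UMIs and mitochondrial share and the removal of predicted doublets, 40950 cells were left, with 7152 to 9237 per library. Before these steps the libraries held 89769386 to 167506186 UMIs over all barcodes. Any pair of libraries shared 13 to 30 cell barcodes. Cells were assigned to classes from marker lists that held none of the 10 genes, which gave 9879 alveolar macrophages and 5235 recruited macrophages, the latter defined by markers that include C1q genes, *Ms4a7* and *Cx3cr1*. The 10 alveolar markers summed to 15929 to 22009.7 CPM in the alveolar gate and to 351 to 1769 CPM in the recruited gate. The 8 recruited markers summed to 22.7 to 275 CPM in the alveolar gate and 10564 to 15265 CPM in the recruited gate. CPM is a gene's share of all UMIs of the class in that library, on the usual CPM scale. Both lists set the gates, so this separation follows from the gating and is no test of it. The sham recruited gate held only 44 cells, and uninjured lungs have resident interstitial macrophages that share the recruited markers. The labels call the libraries immune cells, yet 760 epithelial cells, 321 endothelial cells and 302 fibroblasts were also present, and 7757 cells stayed in no class. *Chil3*, which marks alveolar macrophages, stood at 191 to 1536 CPM in B cells beside 11231 to 15324 CPM in alveolar macrophages, so that RNA of other cells reached B cell barcodes, and the part of free RNA in the values below was not tested.

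In the fit over 5 libraries, 7 of the 10 genes were higher in recruited than in alveolar macrophages, of which *Hk2* was lower on day 3. The summed CPM of the 10 was lower in recruited cells in 4 of the 5 libraries. At an adjusted p under 0.05, 7 of the 10 genes were higher and 0 were lower (edgeR quasi-likelihood test, library as a block, n = 5 libraries), with 8 at an unadjusted p under 0.05 and 7 higher and 1 lower by DESeq2. Of all 12077 genes tested, 41.3% were called in either direction and 20.6% were called higher, and the median log2 difference was 0.68 over the 10 genes and 0.01 over all genes. The 3 genes that were not called higher, *Aldoa*, *Gapdh* and *Ldha*, were below alveolar macrophages in CPM in at least 4 of the 5 libraries. The calls of *Hk2* and *Pkm* were lost when single libraries were left out. The alveolar gate may mix resident and monocyte-derived cells, and it was not divided by origin here. Per library, 13.4% to 66.2% of its cells had at least 3 reporter UMIs, which were not read as descent for the reason given below.

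**Figure D1:**
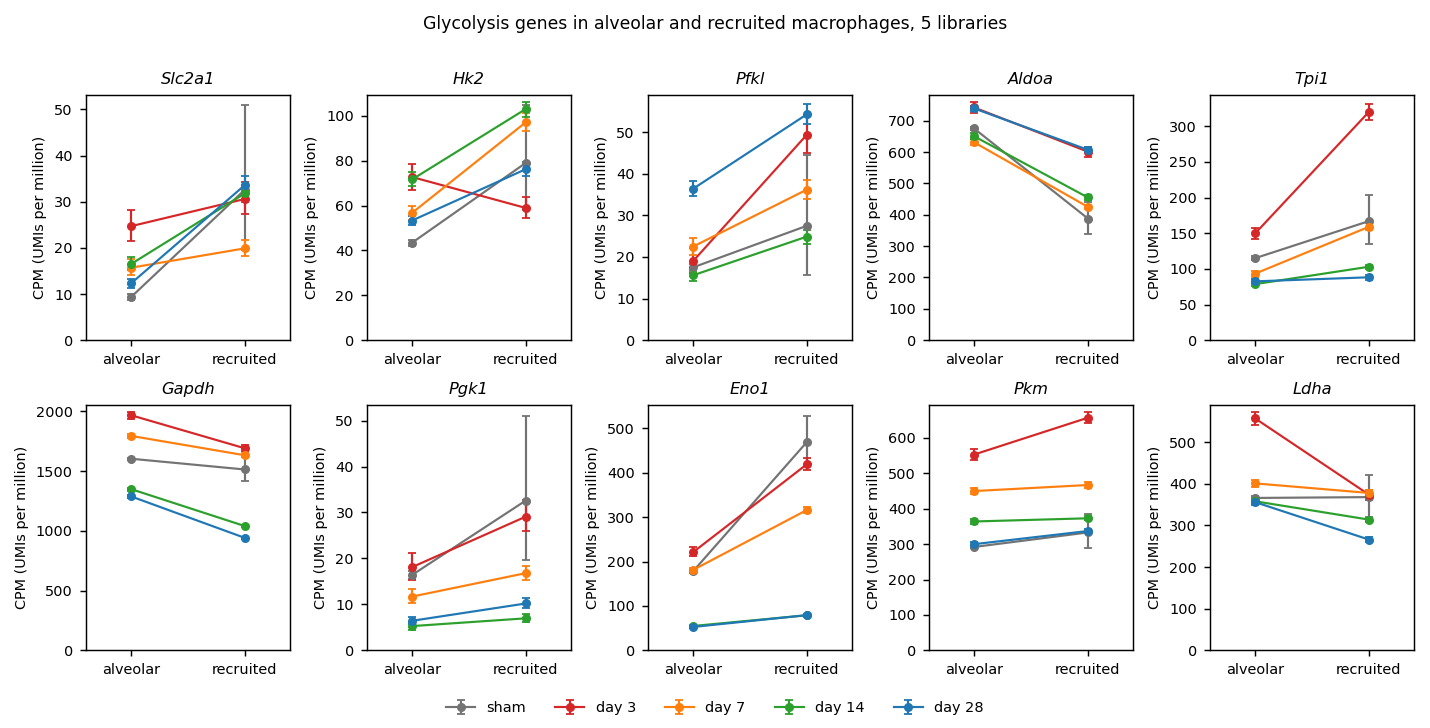
CPM of the 10 glycolysis genes in alveolar and recruited macrophages, 1 panel per gene, with 1 line per library and bars for exact 95% Poisson intervals. The lines rise for *Slc2a1*, *Pfkl*, *Tpi1*, *Pgk1*, *Eno1* and *Pkm* in all 5 libraries and fall for *Aldoa* and *Gapdh* in all 5.

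*Slc2a1* (chr4:119108711-119137983, plus strand; all gene positions are GENCODE vM21, GRCm38) encodes GLUT1, a glucose transporter of the plasma membrane. In alveolar macrophages its level was 9.33 CPM in sham and 24.7, 15.7, 16.5 and 12.3 CPM on days 3, 7, 14 and 28. In recruited macrophages of the same libraries it was 32.6, 30.6, 19.9, 31.8 and 33.6 CPM. Recruited cells were thus higher in all 5 libraries, with the widest gaps in sham and on day 28, although the day 7 value in recruited cells fell inside the alveolar range. The log2 difference was 1.07 (SE 0.25, adjusted p = 0.011, edgeR), a 2.09-fold higher level. Without days 14 and 28 it was 0.76 and no longer called (adjusted p = 0.14, edgeR).

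*Hk2* (chr6:82725025-82774454, minus strand), a hexokinase that traps glucose as glucose 6-phosphate, was the exception among the early genes. Alveolar macrophages had 43.4 CPM in sham and 72.7, 56.7, 71.6 and 53.3 CPM on days 3, 7, 14 and 28, and recruited macrophages had 79, 58.9, 97.1, 103 and 76.2 CPM. Recruited cells were higher in 4 libraries and lower on day 3, where the alveolar level was at its peak and the recruited level at its lowest. On day 3 the log2 ratio of CPM was -0.30 (95% interval -0.47 to -0.14), beside 0.52 to 0.86 in the other 4 libraries. The recruited gate of day 3 also held the most monocyte RNA, with the 6 classical monocyte markers at 2668 CPM beside 151 to 839.9 CPM in the other libraries, and the part of this in the *Hk2* value was not tested. Over the 5 libraries the log2 difference was 0.62 (SE 0.19, adjusted p = 0.032, edgeR), and the call was lost when any 1 of sham, day 7, day 14 or day 28 was left out (adjusted p = 0.09 to 0.11).

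*Pfkl* (chr10:77986947-78010083, minus strand), a subunit of the phosphofructokinase that commits sugar to the pathway, kept its call under all 16 alternatives tried. It rose from 17.5, 19, 22.5, 15.6 and 36.4 CPM in alveolar macrophages of sham and days 3, 7, 14 and 28 to 27.5, 49.4, 36.2, 24.9 and 54.3 CPM in recruited macrophages. Day 3 had the largest step, a log2 ratio of 1.37 (95% interval 1.12 to 1.64), and sham, with 16 UMIs of the gene in recruited cells, had an interval that included 0. The fitted log2 difference was 0.96 (SE 0.12, adjusted p = 0.00068, edgeR).

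The aldolase and triosephosphate steps went opposite ways. *Aldoa* (chr7:126795234-126800751, minus strand), the aldolase that cuts fructose bisphosphate into triose phosphates, was 675, 742, 631, 650.2 and 739 CPM in alveolar macrophages of sham and days 3, 7, 14 and 28, and 388, 601, 425, 455 and 607 CPM in recruited macrophages. The ranges did not overlap, which was so for 23.0% of all genes tested, and *Aldoa* was the 1 gene of the 10 to show this. Its log2 difference of -0.34 (SE 0.13) missed the threshold (adjusted p = 0.065, edgeR) and passed it with DESeq2 (-0.32, adjusted p = 0.033), with scaling by total UMIs (-0.48, adjusted p = 0.01) and without day 28 (-0.43, adjusted p = 0.047). *Tpi1* (chr6:124810586-124814296, minus strand), which interconverts the trioses, was higher in recruited cells of all 5 libraries. It reached 320.2 CPM on day 3 beside 149.7 CPM in alveolar cells, and the gap narrowed to 88.2 beside 82.5 CPM on day 28. The other pairs, recruited before alveolar, were 167 and 115 CPM in sham, 159 and 93.3 CPM on day 7, and 103 and 78.6 CPM on day 14. The log2 difference of *Tpi1* was 0.73 (SE 0.12, adjusted p = 0.0028, edgeR).

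Of the energy-yielding enzymes, *Eno1* showed the largest difference. Its enzyme, enolase 1 (chr4:150236721-150248879, plus strand), makes phosphoenolpyruvate, and the gene stood at 178, 221, 181, 54.9 and 52.7 CPM in alveolar macrophages of sham and days 3, 7, 14 and 28 and at 469, 419, 316, 79 and 79.3 CPM in recruited macrophages. Recruited cells were above alveolar cells in each library, but days 14 and 28 lay far below the other 3 libraries in either class, a shift described below. The log2 difference was 1.00 (SE 0.12, adjusted p = 0.00064, edgeR), and 1.12 (adjusted p = 0.0096) without days 14 and 28. *Pgk1* (chrX:106187100-106203699, plus strand), the phosphoglycerate kinase that makes ATP, was sparse, at 16.4, 18.1, 11.7, 5.28 and 6.43 CPM in alveolar and 32.6, 29.1, 16.8, 6.97 and 10.2 CPM in recruited macrophages. It was higher in recruited cells of all 5 libraries, by 0.79 on the log2 scale (SE 0.12, adjusted p = 0.0015, edgeR).

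For *Gapdh*, *Pkm* and *Ldha* the fitted differences were at most 0.29 in size. *Gapdh* (chr6:125161715-125166467, minus strand), glyceraldehyde 3-phosphate dehydrogenase, was 1603, 1967, 1794, 1349 and 1288 CPM in alveolar macrophages and 1513, 1690.4, 1632, 1039.7 and 941 CPM in recruited macrophages, lower in each of the 5 libraries. The fitted log2 difference was -0.10 (SE 0.11, adjusted p = 0.5, edgeR). *Pkm* (chr9:59656368-59679375, plus strand), the pyruvate kinase of the last step, was 292, 553, 449.9, 364 and 299.9 CPM in alveolar and 333, 657, 467, 373 and 337 CPM in recruited macrophages, with intervals of the ratio that included 0 in sham and on day 14. Its log2 difference of 0.29 (SE 0.09, adjusted p = 0.039, edgeR) was called in 5 of 16 alternatives, and leaving out any 1 library ended the call (adjusted p = 0.06 to 0.13). *Ldha* (chr7:46841475-46855627, plus strand), which turns pyruvate into lactate, was 366, 557, 401, 358 and 356 CPM in alveolar and 368, 374, 378, 314 and 266 CPM in recruited macrophages. The alveolar value stood apart on day 3, and the log2 difference was -0.10 (SE 0.12, adjusted p = 0.55, edgeR).

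**Figure D2:**
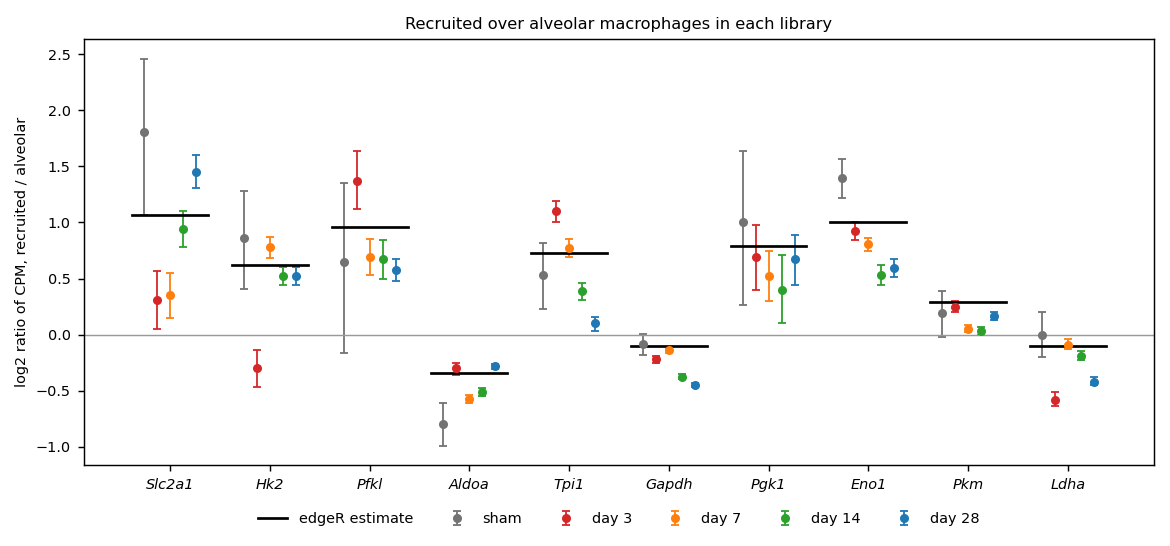
Log2 ratio of CPM in recruited over alveolar macrophages for each gene, with 1 point per library, exact 95% counting intervals and a black line for the edgeR estimate, which also carries a scaling factor between the classes. *Slc2a1*, *Pfkl*, *Tpi1*, *Pgk1*, *Eno1* and *Pkm* lie above 0 in every library, *Aldoa* and *Gapdh* below it, and *Hk2* changes side on day 3.

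The scaling between classes moved the size of these differences. With scaling by total UMIs alone, 5 genes were called higher and *Aldoa* was called lower, the median of all genes tested moved from 0.01 to -0.14, and the genes called higher made up 35.3% of all calls in place of 49.8%. Without the library block 3 of the 10 stayed higher, *Slc2a1*, *Hk2* and *Pfkl*. These values are shares of the UMIs of a class and say nothing of RNA per cell.

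Other genes of the pathway were given by lists. Of 16 further glycolysis genes, all tested, 10 were higher in recruited macrophages and 2 lower, with a median log2 difference of 0.87. The isoforms differed in direction. *Ldhb*, the heart-type lactate dehydrogenase, was 9.77 to 61.7 CPM in recruited and 0.574 to 9.58 CPM in alveolar macrophages (log2 difference 3.62, SE 0.39, adjusted p = 0.00036, edgeR). *Aldoc*, the brain-type aldolase, was 81 to 178 CPM in alveolar and 4.13 to 30.6 CPM in recruited macrophages (-3.14, SE 0.39, adjusted p = 0.00066, edgeR). *Aldoa* and *Aldoc* together summed to 728 to 859 CPM in alveolar and 395 to 629 CPM in recruited macrophages. *Slc2a3*, another glucose transporter, was higher in recruited cells at 1.11 to 5.15 CPM, *Eno2* was higher at no more than 3.97 CPM and had no UMI among the 44 recruited cells of sham, and *Pfkfb4*, which makes an activator of phosphofructokinase, was lower (-1.38, adjusted p = 0.00065, edgeR).

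Of 12 hypoxia targets outside glycolysis, 11 were tested, of which 6 were higher and 1 lower in recruited macrophages, with a median log2 difference of 0.78. *Vegfa*, a growth factor of vessels, was 48.1, 69.4, 35.6, 33.9 and 16.2 CPM in recruited macrophages of sham and days 3, 7, 14 and 28 and 0.62, 5.52, 5.81, 1.79 and 1.89 CPM in alveolar macrophages (3.94, SE 0.45, adjusted p = 0.0005, edgeR). *Ndrg1* and *Ankrd37* rose by 2.96 and 1.65 on the log2 scale, while *Ero1l*, an oxidase of protein folding, fell by 0.65 (adjusted p = 0.001, edgeR). The pentose phosphate genes, which draw glucose 6-phosphate into NADPH and ribose, went the other way, with 5 of 6 lower and none higher. *Rpia*, *Taldo1* and *Tkt* were lower by log2 differences of -1.32, -0.89 and -0.73.

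Beyond glycolysis the lists were mixed. Of 13 genes of pyruvate entry and the citrate cycle, 2 were higher and 5 lower, with a median of -0.17. *Pdk1*, a kinase that inhibits pyruvate dehydrogenase, was lower in recruited macrophages (-1.36, adjusted p = 0.00041, edgeR), as were *Ogdh* (-0.71) and *Cs* (-0.62), whereas *Sdhb* (0.79) and *Fh1* (0.66) were higher. Of 10 respiratory chain genes, *Uqcrc1* was higher (0.43) and *Ndufa4* (-0.58) and *Ndufs1* (-0.38) were lower, with a median of 0.03. Neither of the 2 gluconeogenesis genes tested was called.

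Across 11 immune classes the genes had different orders of level, and no class led all of them. *Aldoa* and *Gapdh* were highest in alveolar macrophages, *Pfkl* and *Tpi1* in recruited macrophages, *Slc2a1* in neutrophils, *Pgk1* in nonclassical monocytes, *Hk2*, *Eno1* and *Pkm* in classical monocytes, and *Ldha* in type 1 conventional dendritic cells, by the median over libraries with at least 20 cells. This order sets values of different libraries together, and classical monocytes entered without day 28, where they had 8 cells, so that their *Eno1* median holds 1 of the 2 late libraries with low *Eno1*. Within libraries, classical monocytes were above the next class in the order, recruited macrophages, in 1 of 4 for *Hk2* and 3 of 4 for *Eno1*, and above neutrophils in 2 of 4 for *Pkm*. For *Pgk1*, the nonclassical gate had only 30 to 54 cells on days 7, 14 and 28. All monocytes together held 4 UMIs of the gene on day 14 and 6 on day 28. Mature dendritic cells were lowest for *Slc2a1*, *Hk2*, *Pfkl*, *Eno1*, *Pkm* and *Ldha*. Values were compared for 1 gene across classes, not between genes.

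**Figure D3:**
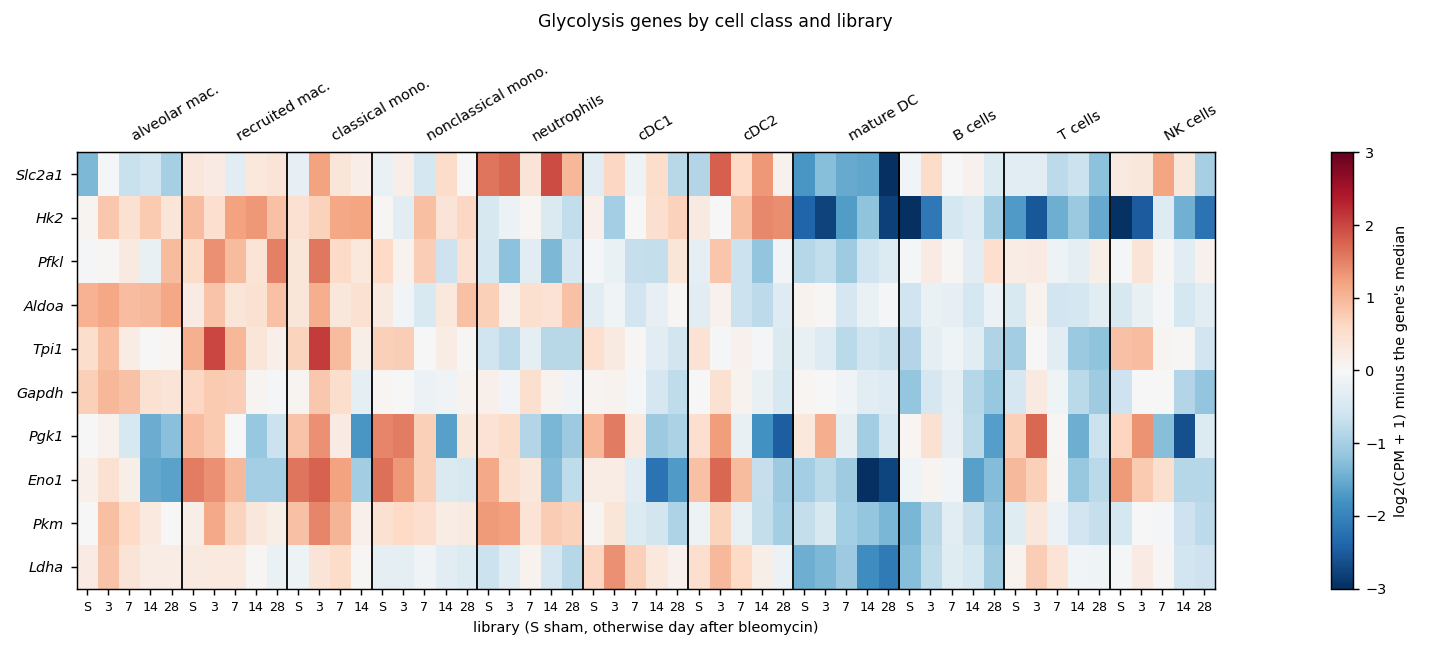
Heat map of the 10 genes (rows) in 11 immune classes, each with its libraries in the order sham (S) and days 3, 7, 14 and 28 (columns), where colour is log2(CPM + 1) minus the median of the gene over all columns. Mature dendritic cells are blue for *Slc2a1*, *Hk2*, *Eno1* and *Ldha*, lymphocytes are blue for *Hk2*, and *Eno1* and *Pgk1* turn blue on days 14 and 28 in most classes.

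Neighbours in these orders often did not separate. *Slc2a1* had a median of 79.5 CPM in neutrophils (range 33.4 to 102), then 38.8 CPM in type 2 dendritic cells (13.3 to 91.1), but neutrophils were the higher in only 3 of 5 libraries. *Aldoa* separated cleanly at the top, with alveolar macrophages above neutrophils in 5 of 5 libraries (median 675 and 458 CPM), while neutrophils exceeded recruited macrophages in 3 of 5. For *Gapdh*, alveolar macrophages (median 1603 CPM) exceeded recruited macrophages (1513 CPM) in 5 of 5, and B cells were last at 542 CPM. *Ldha* was higher in type 1 than in type 2 dendritic cells in 5 of 5 libraries (median 476 and 435 CPM), and type 2 cells exceeded recruited macrophages (368 CPM) in 5 of 5.

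By the median over libraries, *Hk2* was higher in most myeloid classes than in lymphocytes, with mature dendritic cells, the lowest of all, as the exception. Within libraries the lowest class varied. In sham, B cells had 3.7 CPM and NK cells 4.41 CPM beside 6.92 CPM in mature dendritic cells. The *Hk2* median was 80.2 CPM in classical monocytes, 79 CPM in recruited macrophages and 78.2 CPM in type 2 dendritic cells, a trio whose order changed between libraries. In T cells it was 12, 6.28, 14.2, 18.5 and 13.8 CPM in sham and on days 3, 7, 14 and 28, and in NK cells it was 4.41 to 31.3 CPM on 2 to 20 UMIs. B cells had 3.7 CPM in sham and 31.5 CPM on day 14. The day 14 and day 7 values of B cells (31.5 and 28.2 CPM) lay within or above the lower end of the neutrophil range of 24.4 to 43.2 CPM, and the part of free RNA in these low levels was not tested.

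Between monocytes, classical and nonclassical together, and recruited macrophages none of the 10 genes was called, which does not show that their levels are alike. At an adjusted p under 0.05, 0 of 10 were called by edgeR and 0 by DESeq2, and 0 passed at an unadjusted p under 0.05, beside 18.2% of all 10493 genes called. The largest log2 differences were -0.36 for *Pfkl* (SE 0.20), 0.34 for *Pgk1* (SE 0.20) and -0.32 for *Gapdh* (SE 0.15) on 38 to 1575 monocytes and 44 to 1628 recruited macrophages per library. *Eno1* was higher in monocytes of all 5 libraries, at 499.8, 524, 361, 97.6 and 118 CPM beside 469, 419, 316, 79 and 79.3 CPM, yet the fitted difference was 0.19 (SE 0.13, adjusted p = 0.35, edgeR). The day 3 gate of classical monocytes was not pure, since it held *Ms4a7* at 397 CPM and *Gpnmb* at 1179.9 CPM, genes of macrophages, beside 12.5 and 41.8 CPM in sham. Without day 3 still 0 of the 10 were called.

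Isoforms did separate these cells. *Eno3*, the muscle-type enolase, was 267, 93, 24.8, 98.7 and 118 CPM in monocytes of sham and days 3, 7, 14 and 28, and 10.3, 9.07, 4.55, 2.77 and 3.67 CPM in recruited macrophages (log2 difference 3.90, SE 0.35, adjusted p = 0.00048, edgeR). *Slc16a3*, the lactate exporter MCT4, was 72.3 to 225 CPM in monocytes and 20.7 to 51.7 CPM in recruited macrophages (1.67, SE 0.18, adjusted p = 0.00078, edgeR). Of the 16 further glycolysis genes 3 were higher and 1 was lower in monocytes, and of the 6 pentose phosphate genes 3 were higher and 0 lower.

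Neutrophils differed from monocytes in 4 of the 10 genes, 2 higher and 2 lower, beside 45.4% of all 8721 genes called. *Slc2a1* was 79.5, 86.8, 33.4, 102 and 51.5 CPM in neutrophils of sham and days 3, 7, 14 and 28 and 21.8, 55, 31.3, 33.3 and 30.2 CPM in monocytes. Neutrophils were higher in each library, by 1.62 on the log2 scale after scaling (SE 0.34, adjusted p = 0.005, edgeR), with day 7 nearly level. *Pfkl* was 12.5, 7.33, 14.4, 6.67 and 12.7 CPM in neutrophils and 26.3, 50.8, 28.1, 17.7 and 30.2 CPM in monocytes (-0.92, SE 0.28, adjusted p = 0.025, edgeR). *Tpi1* was 44.2 to 64.5 CPM in neutrophils and 78.5 to 311 CPM in monocytes (-0.85, SE 0.27, adjusted p = 0.028, edgeR). *Pkm*, called higher in neutrophils (0.83, SE 0.31, adjusted p = 0.049, edgeR), was lower there in CPM on days 3 and 7, and its call was lost with scaling by total UMIs (0.40, adjusted p = 0.2), under which *Hk2* was called lower instead (-0.91, adjusted p = 0.0097). Neutrophils had a median of 2155 to 8719 UMIs per cell, and with only cells of at least 4624 UMIs, the lowest of any day 7 barcode, 0 of the 10 genes were called. Of 13 further glycolysis genes tested, 7 were higher and 2 lower in neutrophils. *Slc2a3* was 73.7 to 299 CPM beside 0 to 5.26 CPM in monocytes (6.93, SE 0.63, adjusted p = 0.00013, edgeR), and *Slc16a3* was 217 to 1099.9 CPM beside 72.3 to 225 CPM. *Eno3* was lower, at 1.15 to 6.95 CPM beside 24.8 to 267 CPM (-4.41, SE 0.46, adjusted p = 0.00025, edgeR), as was *Ldhb* (-1.79, SE 0.41, adjusted p = 0.0076, edgeR).

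Among the pairs of classes tested, the largest fitted differences of the 10 genes lay between dendritic cell states. In mature dendritic cells, marked by *Ccr7* and *Fscn1*, 5 of the 10 genes were called lower than in type 2 conventional dendritic cells and 1 higher. Of all 8756 genes, 51.5% were called in either direction and 25.1% were called lower. The median log2 difference was -0.35 over the 10 genes and 0.01 over all genes. The 5 lower genes were *Slc2a1*, *Hk2*, *Eno1*, *Pkm* and *Ldha*. *Tpi1* was also lower in each of the 5 libraries, at 44.8 to 67.9 beside 58.3 to 108 CPM, and missed the threshold (-0.32, SE 0.14, adjusted p = 0.071, edgeR), which it passed under 3 of 14 alternatives.

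*Hk2* had the largest difference of the 10. It was 49.8, 40.9, 78.2, 113 and 110.1 CPM in type 2 cells of sham and days 3, 7, 14 and 28 and 6.92, 5.14, 12.1, 17.4 and 5.05 CPM in mature cells. The log2 difference was -2.75 (SE 0.23, adjusted p = 4e-06, edgeR), a 6.75-fold lower level in mature cells. *Slc2a1* was 13.3, 91.1, 38.8, 64.5 and 28.1 CPM in type 2 and 6.92, 9.88, 8.33, 7.91 and 2.17 CPM in mature cells. Mature cells stayed under 10 CPM in all 5 libraries while type 2 cells varied, most on day 3, and the log2 difference was -2.43 (SE 0.26, adjusted p = 2.4e-05, edgeR). In sham, with 5 and 16 UMIs, the interval of the ratio included 0.

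*Ldha* was 435, 604, 463, 346 and 274 CPM in type 2 and 111, 120.1, 143, 83.5 and 70.4 CPM in mature cells (-1.72, SE 0.13, adjusted p = 1.5e-06, edgeR). *Eno1* was 298, 532, 314, 100.2 and 75.5 CPM in type 2 and 78.9, 91.3, 76.1, 15.4 and 23.1 CPM in mature cells, lower in each library (-1.92, SE 0.16, adjusted p = 3.8e-06, edgeR). *Pkm* was lower in each library as well, at 114 to 212 beside 145 to 467 CPM (-0.39, SE 0.14, adjusted p = 0.036, edgeR), but was called in only 8 of 14 alternatives. *Hk2*, *Slc2a1*, *Ldha* and *Eno1* kept their calls in all 14. *Aldoa* was higher in mature cells in 4 of 5 libraries (0.57, SE 0.13, adjusted p = 0.004, edgeR), and this call was lost with scaling by total UMIs (0.29, adjusted p = 0.067), which moved the median of all genes to -0.27 and the share of calls that were higher from 51.2% to 32.2%, and under which *Tpi1* was called lower (-0.60, adjusted p = 0.0038).

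**Figure D4:**
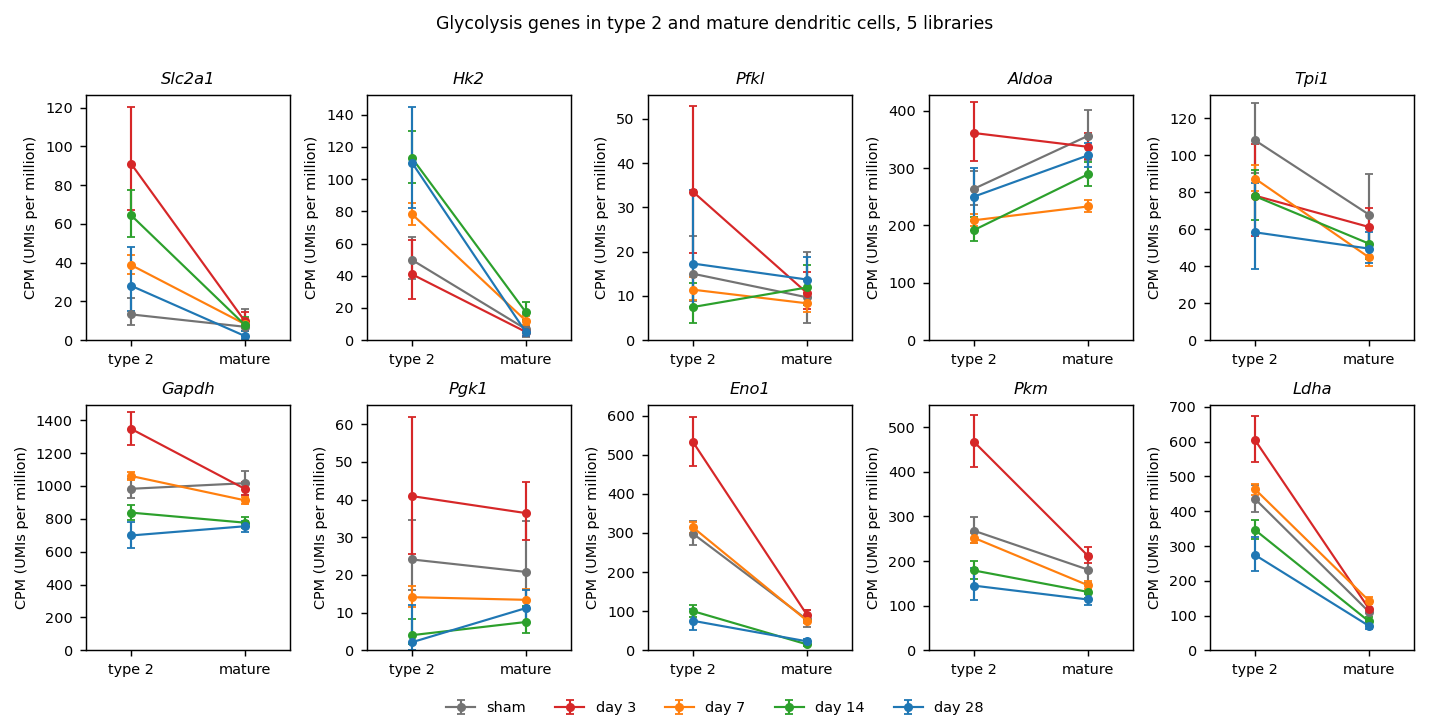
CPM of the 10 glycolysis genes in type 2 and mature dendritic cells, 1 panel per gene, with 1 line per library and bars for exact 95% Poisson intervals. The lines for *Slc2a1*, *Hk2*, *Tpi1*, *Eno1*, *Pkm* and *Ldha* fall in all 5 libraries, and those of *Gapdh* and *Pgk1* go either way.

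Mature dendritic cells carried RNA of other enolases. *Eno3* was 422, 570.2, 313, 310.2 and 299 CPM in mature cells of sham and days 3, 7, 14 and 28 and 7.48, 3.72, 7.39, 2.88 and 6.47 CPM in type 2 cells (log2 difference 6.16, SE 0.22, adjusted p = 5.1e-08, edgeR). *Eno2* was 11.1 to 33.2 CPM in mature cells on 24 to 143 UMIs, and type 2 cells of all libraries held 2 UMIs of it, both on day 7. *Eno1*, *Eno2* and *Eno3* together summed to 535, 673, 409, 356 and 347 CPM in mature cells and 306, 536, 321, 103 and 82 CPM in type 2 cells, so that the sum was the higher in mature cells of every library while *Eno1* was the lower. *Pfkfb3*, which makes the activator of phosphofructokinase, was 123 to 298 CPM in mature and 7.44 to 25.3 CPM in type 2 cells (3.74, SE 0.16, adjusted p = 7.1e-08, edgeR), and *Pfkfb4* was the reverse (-1.80, SE 0.23, adjusted p = 8.6e-05, edgeR). For lactate dehydrogenase the sum went with *Ldha*, as *Ldha* and *Ldhb* together summed to 78 to 147 CPM in mature and 281 to 604 CPM in type 2 cells. Of the other lists, 4 of 12 further glycolysis genes tested were higher and 6 lower, 1 of 9 hypoxia targets was higher and 5 lower, 1 of 6 pentose phosphate genes was higher and 4 lower, and 0 of 12 genes of pyruvate entry and the citrate cycle were higher and 5 lower, among them *Fh1* at 11.1 to 26.1 beside 77.7 to 245 CPM.

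Within alveolar macrophages, cycling cells were compared with the rest. Cells with at least 3 of 8 replication and mitosis markers were set against cells that had none. Fitted were the 4 libraries with 104 to 707 cycling cells (day 3 had 12). The 2 groups were not matched for depth. In sham, 707 cycling cells held 16415569 UMIs and 2555 other cells held 40528738. Of the 10 genes, 2 were higher and 3 lower in cycling cells, beside 40.5% of all 11102 genes called. *Aldoa* was 535, 559, 614 and 631 CPM in cycling and 706, 648, 649.8 and 749 CPM in other cells of sham and days 7, 14 and 28 (-0.33, SE 0.06, adjusted p = 0.00043, edgeR). *Pfkl* (-0.50, SE 0.10, adjusted p = 0.0012) and *Hk2* (-0.21, SE 0.07, adjusted p = 0.02) were also lower by edgeR. *Tpi1* was 127, 131, 89.3 and 101 CPM in cycling and 110.5, 82.3, 73.7 and 78.9 CPM in other cells (0.27, SE 0.07, adjusted p = 0.0061, edgeR), and *Pgk1* was higher by 0.37 (SE 0.12, adjusted p = 0.028, edgeR) with day 14 the other way. Without the library block 0 of the 10 were called, and scaling by total UMIs kept 4 of the 5, losing *Hk2*.

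Reporter-positive alveolar macrophages, with at least 3 UMIs of the reporter, were compared with those that had 0. The 2 groups were not matched for depth. In sham, 1374 reporter-positive cells held 30555026 UMIs and 1348 reporter-negative cells held 18977769. Reporter RNA was not read as descent here. B cells, which the reporter should not mark, had 124 and 363 CPM of it on days 7 and 14, above the 68.9 and 345 CPM of alveolar macrophages. At least 3 reporter UMIs were in 1.84% to 13.8% of B cells per library (median depths 3218.5 to 7245.0 UMIs per cell) and in 13.4% to 66.2% of alveolar macrophages (14599.0 to 24630.0 UMIs per cell). Of the 10 genes 1 was called, beside 0.781% of all 10762 genes. *Hk2* was 49.6, 71.2, 62.3, 72.6 and 57.9 CPM in reporter-positive and 39.5, 75.2, 51.7, 55.5 and 45.6 CPM in reporter-negative cells of sham and days 3, 7, 14 and 28, higher in 4 of 5 libraries (0.31, SE 0.07, adjusted p = 0.035, edgeR). The call held in 5 of 15 alternatives and not with DESeq2, and with only cells of at least 4624 UMIs 0 of the 10 were called.

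Levels of *Eno1* and *Pgk1* changed between libraries in nearly every class at once. *Eno1* over all cells was 202, 353 and 222 CPM in sham and on days 3 and 7, and 67.7 and 66.2 CPM on days 14 and 28. Against sham, the median log2 ratio over 11 classes was 0.00 on day 3, -0.55 on day 7 and -2.14 on day 14, and over 10 classes -1.93 on day 28. All 11 classes on day 14 and all 10 on day 28 lay below sham with intervals that excluded 0. In T cells, which are of another lineage, *Eno1* was 4.36-fold lower on day 14 and 3.5-fold lower on day 28 than in sham. *Pgk1* fell alongside, with median log2 ratios of 0.51, -0.72, -2.23 and -1.55 on days 3, 7, 14 and 28. By its interval it was below sham in 10 of 11 classes on day 14 and in 7 of 10 on day 28.

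**Figure D5:**
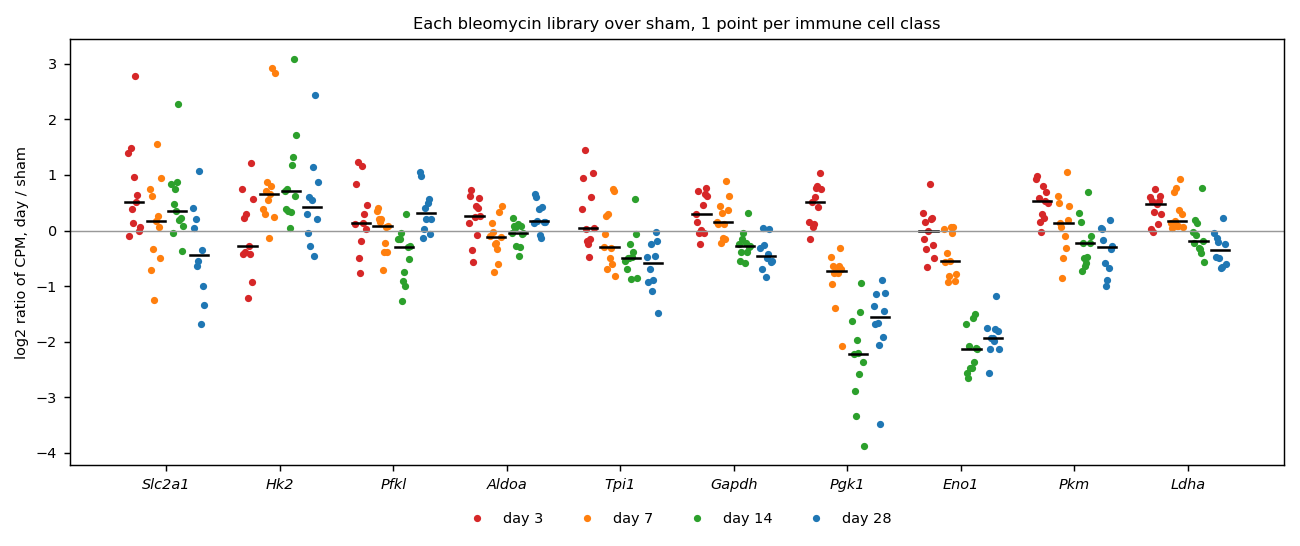
Log2 ratio of CPM in each bleomycin library over sham, with 1 point per immune class (10 or 11) and a black line for the median over classes. *Eno1* and *Pgk1* lie below 0 on days 14 and 28 in every class, and the other 8 genes scatter around 0 with medians of -0.58 to 0.72. Counting intervals are not drawn, and for *Pgk1* some of them included 0.

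Of 6320 genes at 50 CPM or more somewhere, 19 (0.301%) were lower on days 14 and 28 than in all 3 other libraries in each of 10 classes, and 11 were higher, and *Eno1* had the third largest gap of the 19. *Gm10076*, *Gstp1* and *Hmgn2* were among the others, and *Gstp1* over all cells went from 40.3, 56.8 and 19.6 CPM to 1.31 and 1.68 CPM. *Pgk1* met the condition in 9 of 10 classes, *Ldha* in 8, *Tpi1* and *Gapdh* in 7, *Pkm* in 6 and the other 4 genes in none. How many of all genes met it in 6 to 9 of 10 classes was not counted, so these values have no background. The last 500 bases of *Eno1* transcripts, where 3′ counting reads, have near-identical copies in 4 other genes, among them *Eno1b*. The highest identity was 99.4% in the *Eno1* transcript with the most copies and 100% over all *Eno1* transcripts. *Gstp1* has copies in 2 other genes and *Hmgn2* in 12, whereas *Pgk1* has none at 95% identity or more over at least 90 bases. *Eno1b* over all cells was 0.276, 0.269 and 0.306 CPM in sham and on days 3 and 7 and 0.76 and 1.17 CPM on days 14 and 28. *Pgk1-rs7*, whose name refers to *Pgk1*, was 0.092, 0.115 and 0.157 CPM and then 0.21 and 0.322 CPM in the same order. *Gapdh* has such copies in 88 other genes, of which 86 are pseudogenes, so its counts and those of *Eno1*, *Ldha*, *Pkm*, *Aldoa* and *Tpi1* depend on how shared reads were treated. Whether the libraries of days 14 and 28 were made or read differently cannot be told apart from the time after injury, and the tests between classes above were made within libraries, whereas the order of classes used medians over libraries.

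The other genes changed less between libraries. *Hk2* was above sham on day 14 in all 11 classes, with a median log2 ratio of 0.72 and intervals above 0 in 5 of them, and in alveolar macrophages it was 1.68-fold higher on day 3 and 1.65-fold higher on day 14. *Ldha* was above sham on day 3 in 8 of 11 classes by its interval (median 0.47) and below sham on day 28 in 7 of 10 (median -0.35). *Pkm* followed the same course, with 9 of 11 classes above on day 3 (median 0.54) and 5 of 10 below on day 28 (median -0.31). *Slc2a1* and *Pfkl* had 5 and 3 classes above sham on day 3 and none below. The 10 genes summed to 3316 CPM in alveolar macrophages of sham, 4325 on day 3, 3657 on day 7, 2963 on day 14 and 2926 on day 28, and in recruited macrophages to 3410, 4229, 3548, 2529 and 2493 CPM. The sum was higher in recruited than in alveolar cells in sham and lower in the other 4 libraries.

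The genes followed each other only in part. Over 73 units of class and library with at least 20 cells, each gene's log2(CPM + 10) had a Pearson correlation with the mean of the other 9 of 0.83 for *Pkm*, 0.77 for *Gapdh*, 0.69 for *Eno1* and 0.64 for *Tpi1*, and of 0.43 to 0.57 for the other 6. *Pgk1* and *Eno1* were correlated at 0.73. Outside the lists, the genes most like the mean of the 10 were *Rnpep* (0.81), *Tgfbi* (0.76), *Slc7a8* (0.73), *Ms4a6d* (0.72), *Fcgr1* (0.72), *Ccl2* (0.71), *Tmem14c* (0.71), *Gch1* (0.70), *Cndp2* (0.70) and *Akt1* (0.70), of 8219 genes compared. The units share libraries, depth and free RNA, and the correlations are a description.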

How the data were processed

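Single-cell 3′ RNA-seq (10x Genomics, v3.1) of 5 lung libraries was used, 1 per time point. Per the submitters' processing notes the authors used Cell Ranger 6.0.0 and mm10, and they deposited raw UMI counts per gene and barcode. Reads shared with near-identical genes can be lost or split by such counting. Of 52800 barcodes, 44772 were kept, with limits of 800 and 60000 on UMIs, 300 and 8000 on detected genes, and 15% on the mitochondrial share. Day 7 held 10000 barcodes with at least 4624 UMIs, where the other libraries began at 500 to 502. The barcodes with the highest Scrublet scores (scanpy 1.11.5), 3822 in all at a rate that grew with the number of barcodes in a library, were removed as doublets. Median UMIs per cell were 8938.5 to 13277.5, and intervals cover counting error only.

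Cells were put in a class when the mean scaled score of its markers was at least 0.5 and 0.25 above the next class, with at least 3 markers detected. Counts were summed per class and library with at least 20 cells and tested with edgeR 4.0.16 (quasi-likelihood, TMM, filterByExpr, library as a block, R 4.3.3), with Benjamini-Hochberg adjustment over all genes. The classes share a library by construction, so the block rests on the shared lungs and droplets. Gate markers and the reporter were not tested. The SE is the log2 difference divided by the square root of F, and the p-values measure the spread between 5 libraries from different time points. The test was checked on simulated data. Alternatives were DESeq2 1.42.0, no low-count filter, no block, each library left out, doublets kept, a 10% mitochondrial limit, a depth floor, a stricter gate margin and, for single comparisons, no cycling cells, all classes in 1 fit and a reporter limit of 1 UMI. Scaling by total UMIs and leaving out days 14 and 28 were added after seeing the data.

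All members were named in each comparison, and from each other list at most the 3 largest called genes in each direction. *Gstp1*, *Gm10076*, *Hmgn2*, *Eno1b*, *Pgk1-rs7* and the marker genes were named after their values were seen. The members and lists were chosen with earlier results of these data known. Copies were sought with blastn 2.17.0.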

Additional observations from a re-analysis of the deposited data

Results flagged for a closer look

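*Hk2* was flagged because the difference between recruited and alveolar macrophages had opposite signs at different times. The log2 ratio of CPM, recruited over alveolar, was 0.86 in sham (95% counting interval 0.41 to 1.28), 0.78 on day 7 (0.68 to 0.87), and 0.52 on day 14 and again 0.52 on day 28 (both 0.44 to 0.60), but -0.30 on day 3 (-0.47 to -0.14). With 1 library per time point the difference between times was not tested.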

How the results depend on the processing

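Of the 160 values of single genes recomputed for recruited against alveolar macrophages, 134 kept their direction and side of the threshold, 22 lost a call, 3 gained one and 1 changed direction, and of 140 for mature against type 2 dendritic cells these were 126, 8, 3 and 3. Each of these 4 changes of direction was in a gene not called under either setting. *Ldha* in recruited macrophages (-0.10) ranged from -0.15 to 0.02 with 1 library left out, above 0 only without day 3. In mature dendritic cells *Gapdh* went from 0.15 to -0.12 with scaling by total UMIs, and *Pfkl* from -0.20 to 0.01 with doublets kept, with a range of -0.48 to 0.10 with 1 library left out, above 0 only without day 3. The count of genes higher in recruited macrophages, 7, was 3 with no library block, 4 without days 14 and 28 and 5 to 6 with 1 library left out. The count lower, 0, was 1 with DESeq2 and with scaling by total UMIs, and 0 to 1 when 1 library was left out. For neutrophils against monocytes the count of 4 was 0 with the depth floor of day 7 and 0 without days 14 and 28, and 1 to 6 with 1 library left out, lowest without day 3 or day 14 and highest without day 7. For cycling cells the count of 5 was 0 with no library block and 3 to 5 with 1 library left out, 3 without sham, day 7 or day 28. For the reporter the count of 1 was 0 with DESeq2, no library block, the depth floor, the stricter gate margin and scaling by total UMIs, 3 with no filter on low counts, and 0 to 1 with 1 library left out, 0 without sham, day 7 or day 28. The cause was not tested, except that leaving out libraries leaves fewer samples.

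Over all genes, 2443 were called in place of 4984 for the macrophages without days 14 and 28. For monocytes the 1908 calls became 639 with no block, 250 without days 14 and 28 and 925 without day 14. For neutrophils the 3961 calls became 583 with the depth floor, 757 without days 14 and 28 and 2266 without sham. For cycling cells the 4491 calls became 968 with no block. For the reporter the 84 calls became 41 with DESeq2, 377 with no filter, 0 with no block, 140 with doublets kept and 33 without day 28. Scaling by total UMIs moved the share of calls that were higher from 52% to 29.6% for neutrophils, from 50.6% to 69% for cycling cells and from 78.6% to 63.3% for the reporter. No paired analysis by replicate number was possible because each time point has 1 library, and the library block stands in its place. Sparse genes limit the small classes, as *Pgk1* had 4 and 6 UMIs in monocytes of days 14 and 28.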
